A study of Mus musculus with 28 samples.

Results

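Hippocampal RNA of mice with a kinase-dead Ripk1 was compared with that of WT mice in the absence of any Alzheimer's disease transgene. The comparison rests on 6 of the 28 samples of the series, 3 libraries labelled Ripk1 D138N and 3 labelled WT, and covers all 21376 genes with enough counts to test. Ripk1 D138N mice were homozygous for a substitution in the kinase domain of RIPK1. Their WT controls descended from the same ancestor, per the labels. All mice were 9 months old and had been through behaviour tests before the hippocampus was taken. The Ripk1 cohort also holds 3 libraries of Ripk1 D138N 5xFAD and 3 of 5xFAD, which serve below to show where the mutation had another effect. 5xFAD mice carry human transgenes, with a mutant form of APP, that the Thy1 promoter drives in neurons. Whether each library is a different animal is not stated in the labels, and the p-values can speak only for the variation among the libraries at hand.

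RIPK1 is a kinase that also works as a scaffold. Bound to the TNF receptor it is decorated with ubiquitin chains and helps to activate NF-kB, which needs no kinase activity. When the chains are trimmed or lacking, its kinase activity can start apoptosis through FADD and caspase-8, or necroptosis through RIPK3 and MLKL. ZBP1, an interferon-induced sensor of Z-form nucleic acids, binds RIPK1 and RIPK3 through shared RHIM motifs. In the brain, RIPK1 has been studied mainly in microglia, astrocytes and oligodendrocytes.

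The 6 libraries held 28.2 to 31.8 M counts in Ripk1 D138N and 36.8 to 41.9 M counts in WT. Replicate libraries differed by more than sampling noise, with a chi-square per degree of freedom of 12.3 to 25.7. All 11 markers of hippocampal pyramidal and granule neurons were detected, and their summed level overlapped between the groups, at 8813 to 10048 CPM in Ripk1 D138N and 8376 to 9674 CPM in WT. CPM are counts scaled to a library of 1 M counts after TMM. The amount of choroid plexus, a neighbouring tissue, varied most. Its 13 markers summed to 4434, 5139 and 81.0 CPM in Ripk1 D138N libraries, against 806, 3244 and 315 CPM in WT libraries. Both genotypes thus held high and low libraries. All 13 markers had positive log2 fold changes, 0.75 to 1.39, with a median 95% interval of 2.64 to either side, and none was called. WT 2 also had the highest summed level of thalamus and habenula markers, at 383 CPM, where the other 5 libraries had 287 to 319 CPM.

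Ripk1 itself was expressed at 6.95, 8.91 and 7.29 CPM in Ripk1 D138N, against 8.21, 7.83 and 6.75 CPM in WT. The groups overlapped. The log2 fold change was 0.02 ± 0.13 (SE), with a 95% interval of -0.26 to 0.31. A point mutation does not show in a count per gene, so these values do not check the genotype labels.

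No gene was called in Ripk1 D138N against WT, where called means an adjusted p under 0.05 in edgeR's quasi-likelihood test with Benjamini-Hochberg adjustment. The share called was 0% of 21376 genes, and the smallest adjusted p was 0.9998. At an unadjusted p under 0.05 there were 514 genes (2.4%), of which 227 were higher in Ripk1 D138N (1.06%) and 287 lower (1.34%). Without any effect, a share of about 0.05 of genes would have such a p, so 2.4% is not an excess. DESeq2 and limma-voom also called 0 genes, with 517 and 516 at an unadjusted p under 0.05. In 1646 genes (7.7%) the 3 Ripk1 D138N libraries did not overlap the 3 WT libraries, 3.58% with Ripk1 D138N higher and 4.12% with it lower. With 3 libraries per group such separation also arises without any effect. The same fit called 78 genes in Ripk1 D138N 5xFAD against 5xFAD (0.365%), 5 higher (0.0234%) and 73 lower (0.342%), and had 2621 there at an unadjusted p under 0.05 (12.3%).

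The precision sets what could have been seen. The median SE of a log2 fold change was 0.17. The 95% interval lay within a 2-fold change in either direction for 15092 genes (70.6%), and within a 1.5-fold change for 11690 (54.7%). The 2-fold share was 98.3% of genes at 10 to 100 CPM, 77.5% at 1 to 10 CPM and 6.21% under 1 CPM. Changes in scarce transcripts, such as most cytokine genes, were therefore detectable only where they were large.

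The 9 genes of the RIPK1 and necroptosis core had no member at an unadjusted p under 0.05 and a median log2 fold change of -0.02, beside a median of 0.0019 over all genes tested. Its sign was not stable, since the median ran from -0.12 without WT 2 to 0.08 without Ripk1 D138N 3. Among the partners of the apoptotic arm, Casp8 (caspase-8) was at 3.28, 4.19 and 2.88 CPM in Ripk1 D138N and 3.86, 3.01 and 3.64 CPM in WT. Its interval ran from -0.42 to 0.37. Fadd, its adaptor, had a log2 fold change of -0.26 ± 0.21. Cflar, which encodes the caspase-8 regulator cFLIP, had 0.21 ± 0.14. Tradd and Ticam1, adaptors that link the TNF receptor and Toll-like receptor 3 to RIPK1, had 0.19 ± 0.19 and 0.14 ± 0.14.

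The necroptotic arm was expressed at the edge of detection. Ripk3 was at 0.530, 0.384 and 0.199 CPM in Ripk1 D138N and 0.697, 0.337 and 0.248 CPM in WT. Mlkl, the membrane-permeabilising effector, was at 0.232, 0.349 and 0.431 CPM in Ripk1 D138N and 0.322, 0.265 and 0.468 CPM in WT. The 95% intervals of Ripk3 (-1.52 to 1.12) and Mlkl (-1.29 to 1.18) passed a 2-fold change on either side. Zbp1 had 2, 3 and 4 counts in Ripk1 D138N and 4, 8 and 10 counts in WT. Its log2 fold change of -0.90 ± 0.56 did not pass the test (edgeR, unadjusted p = 0.131).

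**Figure D1:**
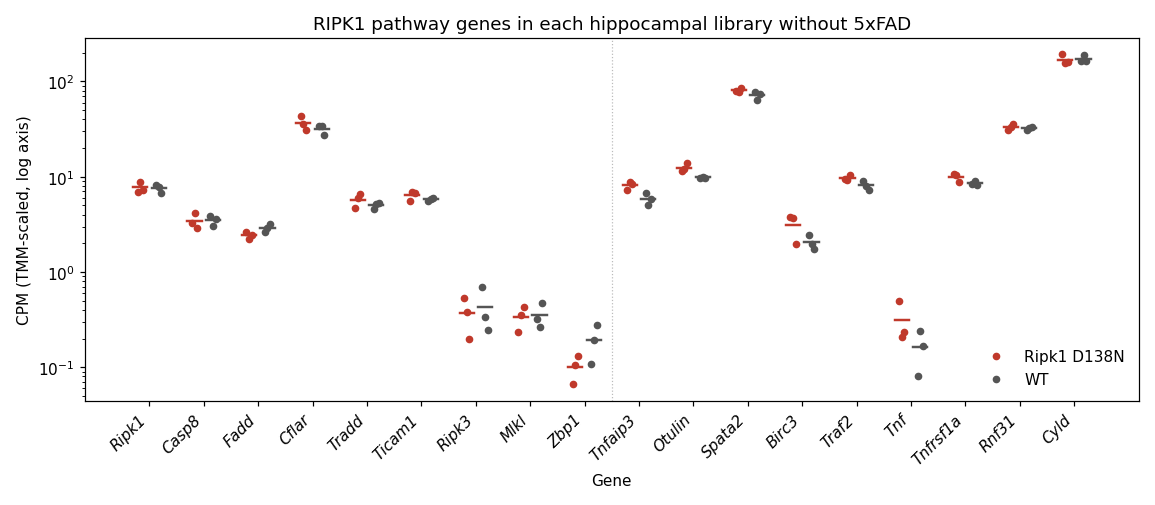
Level of 18 genes of the RIPK1 pathway in each library, in CPM on a log axis, with Ripk1 D138N (red) left of WT (grey), points for libraries and bars for means of 3 libraries. The 9 core genes stand left of the dotted line and 9 genes of the TNF receptor complex right of it. Tnfaip3 is at 7.25 to 8.80 CPM in Ripk1 D138N and 5.06 to 6.76 CPM in WT, while Ripk1 overlaps.

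Of 27 genes of the TNF receptor complex and its ubiquitin regulators, none was called. At an unadjusted p under 0.05 there were 5 with a higher level in Ripk1 D138N and 0 with a lower one, beside 1.06% and 1.34% of all genes tested. Libraries did not overlap in 4 genes that were higher and 2 that were lower, beside 3.58% and 4.12% of all genes. The median log2 fold change of the list was 0.02. Tnfaip3, which encodes the ubiquitin-editing enzyme A20, was at 7.25, 8.80 and 8.45 CPM in Ripk1 D138N and 6.76, 5.06 and 5.79 CPM in WT. Its groups did not overlap, and its log2 fold change was 0.48 ± 0.17 (unadjusted p = 0.0153). Otulin, which removes linear ubiquitin chains, was at 11.4, 12.1 and 13.9 CPM in Ripk1 D138N and 9.68, 10 and 9.81 CPM in WT. Its log2 fold change was 0.34 ± 0.14, again without overlap. Spata2, which tethers the deubiquitinase CYLD to the complex, had 0.18 ± 0.07, and Traf2, an adaptor, had 0.27 ± 0.12. Birc3, the ubiquitin ligase cIAP2, was at 3.74, 3.67 and 1.96 CPM in Ripk1 D138N and 2.47, 1.95 and 1.74 CPM in WT. Its groups overlapped, with 0.60 ± 0.27.

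The number of genes at an unadjusted p under 0.05 depended on single libraries. The log2 fold changes of the 5 genes stayed positive in 16 alternatives, at 0.38 to 0.59 for Tnfaip3 and 0.10 to 0.24 for Spata2. Without WT 2 the count of 5 became 1, without WT 3 it became 2, and over all alternatives it ran from 1 to 6. With 5xFAD the same 5 genes had log2 fold changes from -0.17 (Traf2) to 0.10 (Spata2), none at an unadjusted p under 0.05. In Ripk1 D138N against WT the remaining 22 genes had no such p. With 5xFAD the list held 1 higher and 3 lower at an unadjusted p under 0.05, beside 12.3% of all genes. Rnf31, Rbck1 and Sharpin, the parts of the linear ubiquitin ligase LUBAC, had 0.05 ± 0.09, 0.07 ± 0.08 and 0.02 ± 0.11. Chuk, Ikbkb and Ikbkg, the IKK subunits, had 0.04 ± 0.07, -0.02 ± 0.07 and 0.02 ± 0.10. Tbk1, a kinase that restrains RIPK1, was at 64.8, 61.9 and 66.6 CPM in Ripk1 D138N and 62.2, 54.8 and 55.7 CPM in WT. It had 0.16 ± 0.08 (unadjusted p = 0.0508). Tnf and its receptors Tnfrsf1a and Tnfrsf1b had 0.92 ± 0.63, 0.22 ± 0.13 and -0.06 ± 0.14.

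Downstream of the receptor, 21 NF-kB target and cytokine genes were tested and none was called. Only the chemokine gene Cxcl10 had an unadjusted p under 0.05. It had 11, 18 and 20 counts in Ripk1 D138N and 6, 10 and 10 counts in WT, a log2 fold change of 1.27 ± 0.48 (edgeR, unadjusted p = 0.0206). Il1b, Ccl3 and Bcl3 had -0.81 ± 0.59, 0.62 ± 0.46 and 0.63 ± 0.49, and Bcl3 had 1.24 without WT 2 and 0.23 without WT 3. Among 20 genes of apoptosis and pyroptosis no unadjusted p lay under 0.05. The inflammasome sensor gene Nlrp3 had -0.72 ± 0.38, but -0.04 without WT 1. Apaf1, which builds the apoptosome, had 0.27 ± 0.18.

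No member of the type I interferon response passed the test in Ripk1 D138N against WT. Interferons act through a complex that holds STAT2 and IRF9 and switches on genes of antiviral defence. None of the 36 genes of this list had an unadjusted p under 0.05, and their median log2 fold change was 0.01. Their summed level was 225, 248 and 199 CPM in Ripk1 D138N, against 216, 219 and 217 CPM in WT. The 3 WT libraries lay inside the range of the 3 Ripk1 D138N libraries. For 25 of the 36 the interval lay within a 2-fold change. Single members scattered on both sides, from Zbp1 at -0.90 to the antiviral GTPase gene Mx1 at 1.43 ± 0.68. Mx1 had 7, 25 and 10 counts in Ripk1 D138N and 5, 7 and 8 counts in WT (unadjusted p = 0.0561). Usp18, which removes ISG15 from proteins, had -0.56 ± 0.34, and Iigp1, an immunity-related GTPase, had -0.51 ± 0.30. Among 18 antigen presentation genes none had an unadjusted p under 0.05, and the median was 0.04.

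The effect of the mutation on some of these genes differed with the 5xFAD transgenes. In Ripk1 D138N 5xFAD against 5xFAD all 36 had an unadjusted p under 0.05 and a lower level, beside 5.75% of all genes, 30 were called, and the median was -1.84. The 95% interval of Ripk1 D138N against WT left out that estimate for 36 of 36. The difference between both effects was tested in the same fit over 12 libraries, and no library is shared between the contrasts. It was called for 6 of 21376 genes (0.0281%), all more negative with 5xFAD, among them Isg15, Irgm1, Irf7, Ifit1 and Oasl2. At an unadjusted p under 0.05 the difference stood in 36 of 36 list members, beside 7.47% of all genes tested, 3.47% in the negative direction.

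Isg15, a ubiquitin-like modifier, was at 1.39, 1.43 and 1.52 CPM in Ripk1 D138N and 1.26, 1.20 and 0.992 CPM in WT. With the transgenes it was at 1.64, 2.45 and 2.17 CPM in Ripk1 D138N 5xFAD and 11.1, 8.67 and 13.2 CPM in 5xFAD. The 3 libraries of 5xFAD stood above all others. The difference of effects was -2.73 ± 0.31 (edgeR, adjusted p = 0.012). Irgm1, an immunity-related GTPase outside the list, was at 8.81, 11.8 and 8.42 CPM in Ripk1 D138N and 9.55, 7.86 and 8.76 CPM in WT, a log2 fold change of 0.15 ± 0.14. It averaged 18.1 ± 2.01 CPM in Ripk1 D138N 5xFAD and 46.6 ± 3.69 CPM in 5xFAD (SD, n = 3 each). Ifit1, an RNA-binding antiviral protein, had -0.21 ± 0.27 without transgenes. Irf7, a master factor of interferon induction, had -0.07 ± 0.27, and Oasl2, an oligoadenylate synthetase-like gene, had 0.25 ± 0.29.

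Leaving out 1 library at a time left 0 to 31 calls of a difference, 31 of them without Ripk1 D138N 5xFAD 2, and limma-voom and a replicate block each called none. The direction of these 5 differences was the same in all 12 such fits. T and NK lymphocyte markers were scarce in all groups, summing to 2.32 to 2.83 CPM in Ripk1 D138N and 2.36 to 2.84 CPM in WT. They summed to 3.84 to 4.57 CPM in Ripk1 D138N 5xFAD and 6.45 to 8.84 CPM in 5xFAD. The 20 homeostatic microglia genes summed to 583 to 625 CPM in Ripk1 D138N and 535 to 668 CPM in WT. They summed to 1381 to 1633 CPM in Ripk1 D138N 5xFAD and 1752 to 1858 CPM in 5xFAD, without overlap. Of the 20, 8 were lower in Ripk1 D138N 5xFAD at an unadjusted p under 0.05, beside 5.75% of all genes. For 5 of the 20 the difference of effects had such a p, beside 7.47% of all genes. The part of both cell types in the difference was not tested.

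**Figure D2:**
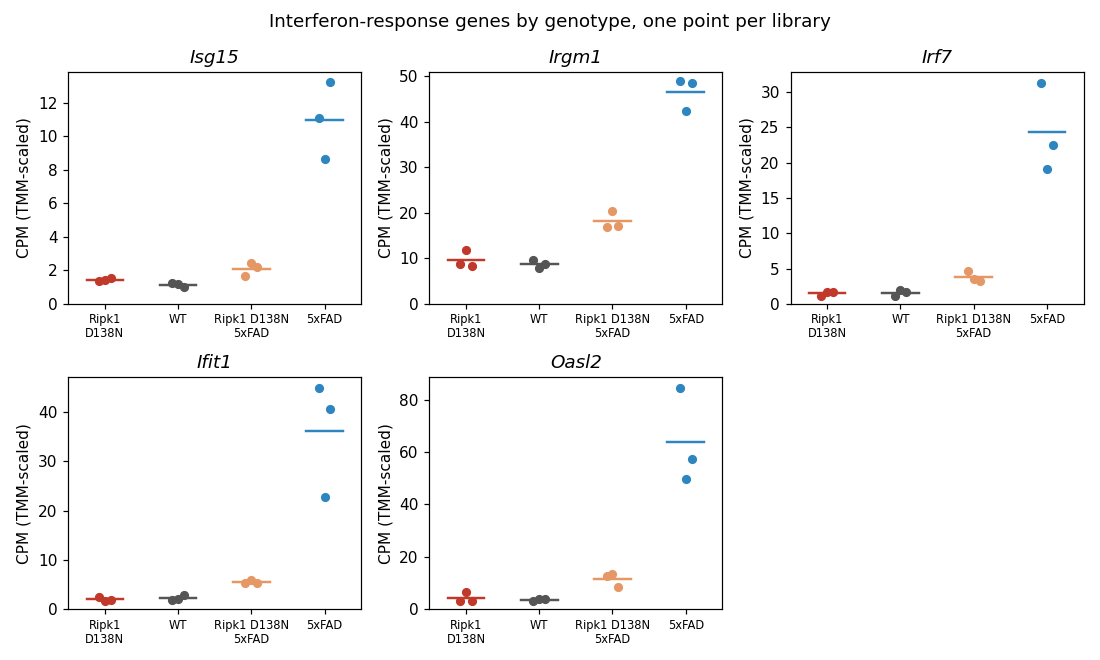
CPM of 5 genes whose Ripk1 D138N effect differed between backgrounds, with a linear axis from 0, points for libraries and bars for means of 3 libraries. In each panel the Ripk1 D138N and WT points overlap or lie close together, and 5xFAD stands above the other genotypes.

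The interferon-stimulated response element, which the complex with STAT2 and IRF9 binds, has 2 GAAA blocks 2 bases apart. For each named gene the first promoter window listed in the RefSeq table of GRCm38.p6 was searched, over the 250 bases before the start. Any other start of the same gene was not searched. The pattern was GAAA, any 2 bases and GAAA again, on both strands. Of the 5 named genes, 3 held it, beside 978 of all 32851 windows listed (2.98%). The sequences are shown because they belong to genes whose Ripk1 D138N effect differed between the backgrounds. Each line is 60 bases in the direction of the gene, and capitals mark the matches, which overlap in Irgm1 and Isg15.
Isg15, chr4:156200856-156200915, minus strand: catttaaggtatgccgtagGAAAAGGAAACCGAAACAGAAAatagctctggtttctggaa
Irgm1, chr11:48871421-48871480, minus strand: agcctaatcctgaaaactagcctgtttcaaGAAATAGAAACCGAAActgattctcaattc
Ifit1, chr19:34640769-34640828, plus strand: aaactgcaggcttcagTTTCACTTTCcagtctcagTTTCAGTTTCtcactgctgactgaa
Isg15 held 3 matches, Irgm1 held 2 and Ifit1 held 2, those of Ifit1 on the reverse strand. Irf7 and Oasl2 held none in this window.

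Microglia, the resident macrophages of the brain, showed no called gene. Of 20 homeostatic microglia genes and 24 disease-associated microglia genes, 0 had an unadjusted p under 0.05, with medians of -0.03 and 0.04. The interval lay within a 2-fold change for 19 and 21 of them. In bulk tissue, fewer cells of a type and less RNA per cell cannot be told apart. Gpr34 and C1qa, microglial receptor and complement genes, had -0.10 ± 0.13 and -0.08 ± 0.16. Ctsd and Lpl, lysosomal protease and lipoprotein lipase genes that mark plaque-associated microglia, had 0.15 ± 0.14 and 0.15 ± 0.13. Among 17 complement genes none had an unadjusted p under 0.05, and among 22 reactive astrocyte genes only Cxcl10 did.

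Myelin and oligodendrocyte genes had no call and mostly negative values. Of 20 genes, 19 had a negative log2 fold change, the median was -0.18, and 3 had an unadjusted p under 0.05, beside 1.34% of all genes in that direction. Ermn, a cytoskeletal gene of myelinating cells, was at 70.4, 54.5 and 54.0 CPM in Ripk1 D138N and 82.4, 76.3 and 61.6 CPM in WT. Its groups overlapped, at -0.30 ± 0.13 (unadjusted p = 0.0328). Olig1, a lineage transcription factor, was at 75.7, 77.2 and 70.9 CPM in Ripk1 D138N and 86.4, 85.0 and 80.9 CPM in WT. Its groups did not overlap, at -0.17 ± 0.08. The single positive member was Enpp2, at 0.99 ± 1.02, which choroid plexus also expresses.

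The structural myelin genes Mbp and Mobp had -0.19 ± 0.14 and -0.25 ± 0.13. The count of 3 became 9 without Ripk1 D138N 1, and 0 without Ripk1 D138N 3 or without WT 1. Genes of a single cell type move together, so 19 of 20 is not a count of independent genes. With 5xFAD the list had a median of 0.16. Oligodendrocyte precursor genes had 0 of 10 at an unadjusted p under 0.05 and a median of -0.09. Of 15 astrocyte markers, 13 were negative, with a median of -0.07. Glul, glutamine synthetase, was at 1528, 1335 and 1452 CPM in Ripk1 D138N and 1619, 1702 and 1568 CPM in WT, without overlap, at -0.18 ± 0.07 (unadjusted p = 0.0286).

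**Figure D3:**
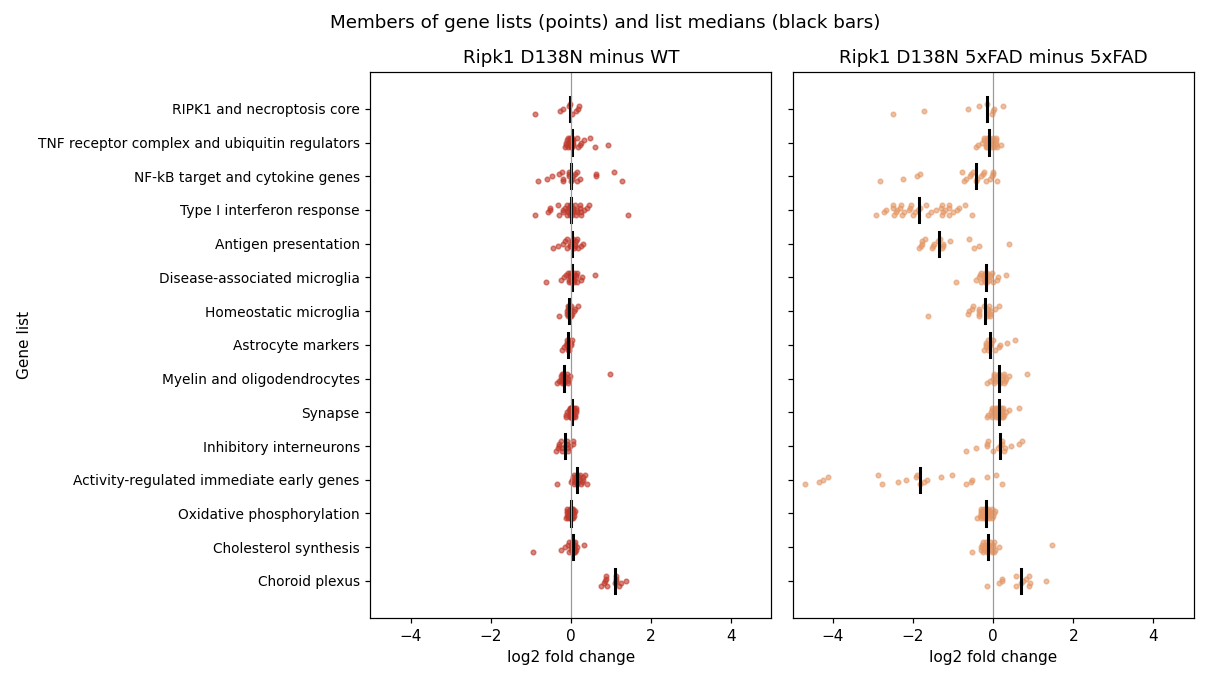
Log2 fold changes of the tested members of 15 gene lists (points) with list medians (black bars), for Ripk1 D138N minus WT on the left and Ripk1 D138N 5xFAD minus 5xFAD on the right. On the left the interferon list has its median at 0.01, and on the right at -1.84. Choroid plexus markers stand apart on the left, with a median of 1.12. Immediate early genes have a median of -1.83 on the right, where they summed to 6402 CPM in 5xFAD 1 and to 863 and 803 CPM in 5xFAD 2 and 5xFAD 3.

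Synapse genes were tightly measured. For 35 of 35 synapse genes the interval lay within a 2-fold change, no unadjusted p lay under 0.05, and the log2 fold changes ran from -0.13 to 0.13. Snap25, of the vesicle fusion machinery, was at 1984, 1895 and 2211 CPM in Ripk1 D138N and 2013, 1926 and 2146 CPM in WT. Dlg4, the scaffold PSD-95, had 0.10 ± 0.09, and Gria1, an AMPA receptor subunit, had 0.02 ± 0.09. Markers of pyramidal and granule neurons were all positive and small, 0.02 to 0.17 in 11 of 11, with none at an unadjusted p under 0.05.

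Inhibitory interneuron genes had 13 of 15 negative values, a median of -0.13 and none at an unadjusted p under 0.05. Gad2, which makes GABA, was at 168, 141 and 147 CPM in Ripk1 D138N and 191, 258 and 119 CPM in WT, so WT libraries spanned the mutant ones. The highest value was that of WT 2, the library highest in thalamic markers. Pvalb, which marks fast-spiking interneurons, had -0.29 ± 0.13 (unadjusted p = 0.053). Immediate early genes, which follow neuronal activity, had 0 of 21 at an unadjusted p under 0.05 and a median of 0.15. Their median interval was wide, 1.31 to either side, from a fit in which all 12 libraries set the spread. They summed to 997 to 1243 CPM in Ripk1 D138N and 882 to 1129 CPM in WT. In 5xFAD 1 they summed to 6402 CPM, against 863 and 803 CPM in 5xFAD 2 and 5xFAD 3. The part of 5xFAD 1 in the wide interval was not tested. Fos was at 4.87, 9.75 and 15.4 CPM in Ripk1 D138N and 11.3, 4.602 and 8.24 CPM in WT.

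The lists for hippocampal subfields (17 genes), clock genes (16), glucocorticoid-responsive genes (14), heat shock and the unfolded protein response (22), oxidative phosphorylation (29) and cholesterol synthesis (24) had 0 members at an unadjusted p under 0.05. Their medians ran from -0.12 for glucocorticoid-responsive genes to 0.05 for cholesterol synthesis. Plin4, a lipid droplet gene that glucocorticoids induce, was at 20.0, 8.70 and 6.46 CPM in Ripk1 D138N and 4.88, 60.2 and 7.44 CPM in WT, with WT 2 far above the rest. Of 9 genes with known copy or null differences among C57BL/6 substrains, none had an unadjusted p under 0.05. App and Thy1, of which the 5xFAD transgenes use the human form of one and the promoter of the other, had 0.02 ± 0.07 and -0.02 ± 0.12. Markers of endothelial and mural cells, fibroblasts and meninges, ependyma, lymphocytes, peripheral myeloid cells, red blood cells, neocortex and striatum had no member at an unadjusted p under 0.05. Among 13 thalamus and habenula markers Tac2, a tachykinin gene, had -0.61 ± 0.25 (unadjusted p = 0.0306).

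The genes of smallest p are given although none was called. Among those higher in Ripk1 D138N, Cep76, a centriole gene, was at 10.3, 10.9 and 10.7 CPM in Ripk1 D138N and 6.84, 8.05 and 7.69 CPM in WT. Its log2 fold change was 0.50 ± 0.12 (unadjusted p = 0.00125). St3gal5, which makes the ganglioside GM3, was at 105, 110 and 106 CPM in Ripk1 D138N and 89.5, 93.4 and 96.6 CPM in WT, at 0.20 ± 0.06. Sla, a Src-like adaptor of immune cells, had 0.45 ± 0.13. Esco2, which acetylates cohesin in dividing cells, had 4, 8 and 10 counts in Ripk1 D138N and 0, 2 and 0 counts in WT. The others of the 10 were 5730408A14Rik, Gm8730, Platr22, AC132253.6 and 2810414N06Rik, all under 4 CPM, and Zkscan3.

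Among the 10 of smallest p that were lower in Ripk1 D138N, Lilrb4a, an inhibitory receptor of myeloid cells, had 9, 8 and 10 counts in Ripk1 D138N and 16, 26 and 29 counts in WT. Its log2 fold change was -1.02 ± 0.27 (edgeR, unadjusted p = 0.00208). Aspm, a spindle gene of dividing cells, had 7, 8 and 2 counts in Ripk1 D138N and 34, 19 and 24 counts in WT. Ppp1ccb, a phosphatase subunit-like gene, had -1.29 ± 0.34, with WT 2 at 15.6 CPM and the other WT libraries at 6.09 and 4.85 CPM. Gm43605 had 0 counts in all Ripk1 D138N libraries and 20, 8 and 18 counts in WT. The remaining 6 were Gm29054, AC133523.4, Gm44706, Gm44861, Gm15265 and Gm5083. Of these 20 genes, Zkscan3 and Lilrb4a also had an unadjusted p under 0.05 with the same sign in Ripk1 D138N 5xFAD against 5xFAD.

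Zkscan3, a KRAB and SCAN zinc finger gene whose human product represses autophagy genes, was called under some alternatives. It was at 145, 130 and 124 CPM in Ripk1 D138N, against 69.5, 62.4 and 118 CPM in WT. With the transgenes it was at 113, 110 and 125 CPM in Ripk1 D138N 5xFAD and 67.5, 63.9 and 58.3 CPM in 5xFAD. Of the 6 libraries without the mutation, 5 lay between 58.3 and 69.5 CPM, and WT 3 lay in the range of Ripk1 D138N 5xFAD. The log2 fold change was 0.68 ± 0.18 without transgenes (unadjusted p = 0.00195) and 0.88 with them (unadjusted p = 0.000263, edgeR adjusted p = 0.0632). Gene counts cannot check the genotype of WT 3. Without WT 3 the log2 fold change was 1.01 ± 0.10 and was called (edgeR, adjusted p = 0.00339). Since WT 3 stood out by this same level, the fit without it is no separate support. As the mean effect over both backgrounds, a test added after the data were seen, the log2 fold change was 0.78 ± 0.13 (edgeR, adjusted p = 0.0475).

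**Figure D4:**
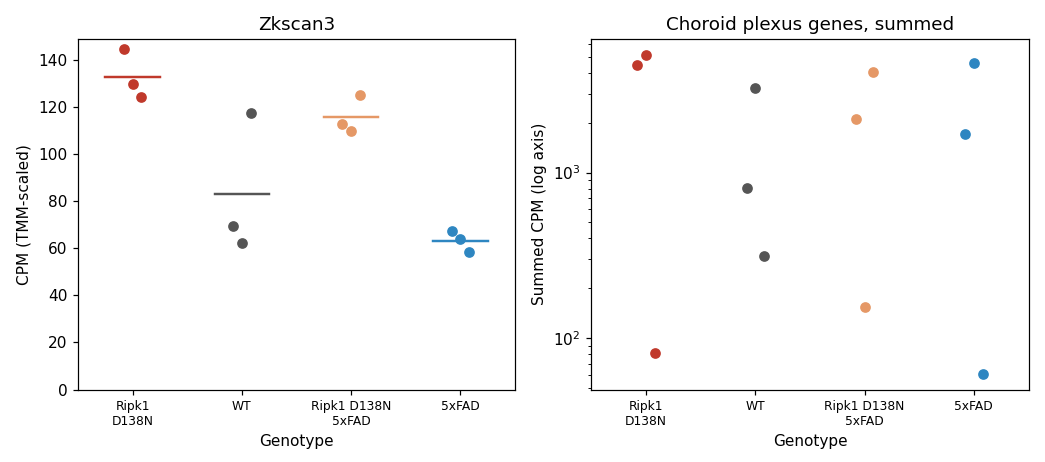
Left, CPM of Zkscan3 per library on an axis from 0, with bars for means of 3 libraries; right, summed CPM of 13 choroid plexus markers per library on a log axis. WT 3 stands at 118 CPM of Zkscan3 among WT libraries at 69.5 and 62.4 CPM, while choroid plexus levels spread widely in all 4 genotypes.

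Zkscan3 lies on chromosome 13, as does Ripk1, 66 tested genes before it in the gene order of GRCm38.p6. The neighbours of Ripk1 in this order were compared as well. The 20 tested genes nearest to Ripk1, 10 on each side, had 0 at an unadjusted p under 0.05, and of the 100 nearest there was 1 (1%), beside 2.4% of all genes. That gene was Rpp40, an RNase P subunit gene 16 places after Ripk1, which was singled out after its values were seen. Rpp40 was at 4.30, 3.49 and 3.02 CPM in Ripk1 D138N and 4.61, 5.11 and 4.91 CPM in WT. Its log2 fold change was -0.44 ± 0.16 without transgenes and -0.43 with them. In Ripk1 D138N 5xFAD against 5xFAD the 20 nearest genes held 5 (25%) and the 100 nearest held 18 (18%), beside 12.3% of all genes.

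The 10 tested genes within 5 places of Zkscan3 had log2 fold changes from -0.33 to 0.26. Its neighbours Zscan12, Pgbd1, Zscan26 and Zkscan4 had 0.03 ± 0.14, 0.26 ± 0.27, -0.01 ± 0.07 and 0.12 ± 0.23. Elmo1, 4 places before it, had -0.33 ± 0.13 (unadjusted p = 0.0247).

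**Figure D5:**
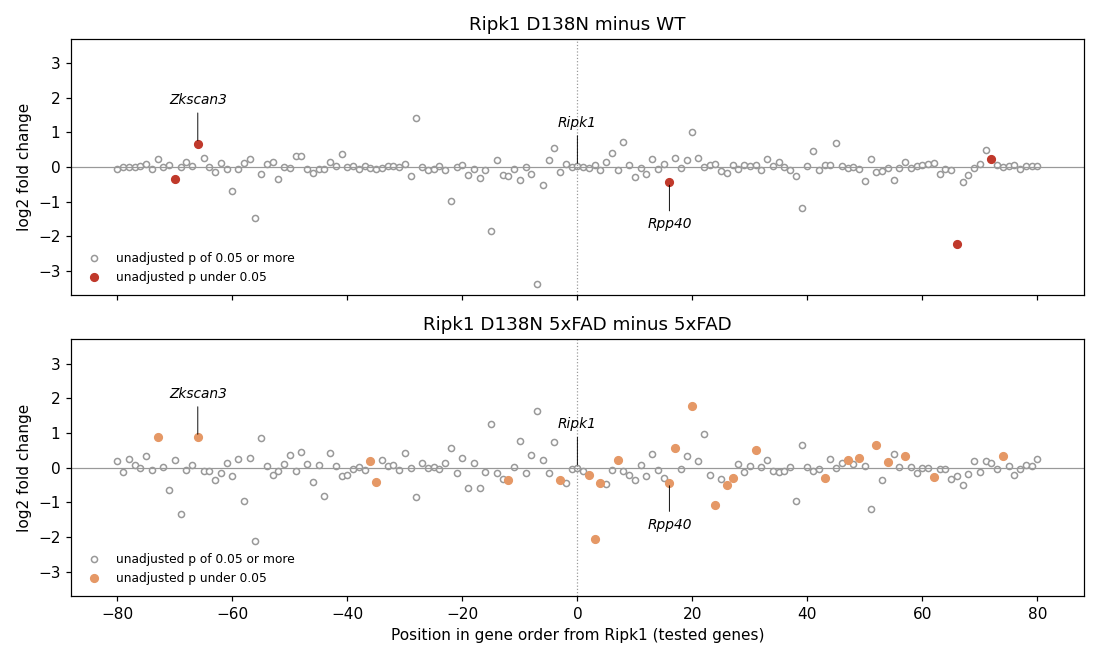
Log2 fold change of tested genes by their place in the gene order of chromosome 13, counted from Ripk1, for Ripk1 D138N minus WT (upper) and Ripk1 D138N 5xFAD minus 5xFAD (lower). Filled points have an unadjusted p under 0.05. Zkscan3 is positive (0.68 and 0.88) and Rpp40 negative (-0.44 and -0.43) in both panels.

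Over all genes, 24 (0.112%) had an unadjusted p under 0.05 with the same sign in both backgrounds, and 42 (0.196%) with opposite signs. Same signs were thus fewer than opposite ones. With such a p in 2.4% of genes without transgenes and 12.3% with them, some overlap arises even between unrelated effects. The 24 genes are thus not read as effects that repeated. From the 24, chosen after their values were seen, Spi1, the microglial factor PU.1, was at 1.99, 2.10 and 3.02 CPM in Ripk1 D138N and 3.16, 3.01 and 4.13 CPM in WT. It had -0.54 ± 0.21 without transgenes and -0.43 with them. Mfn2, a mitochondrial fusion gene, was at 279, 268 and 285 CPM in Ripk1 D138N and 258, 246 and 259 CPM in WT, at 0.12 ± 0.05 without transgenes and 0.13 with them. The mean effect over both backgrounds was called for 13 genes (0.0608%), Zkscan3 higher (0.00468%) and 12 genes lower (0.0561%). It averages 2 contrasts that can differ, as for Isg15, lower by this mean but at 0.33 in Ripk1 D138N against WT. Of those 12, Sp100, a nuclear body gene, had an unadjusted p under 0.05 without transgenes, at -0.38 ± 0.14. It was at 3.31, 3.46 and 3.84 CPM in Ripk1 D138N and 4.34, 4.29 and 5.15 CPM in WT.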

How the data were processed

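The authors deposited whole-number counts of reads per Ensembl gene ID, 1 table for the Ripk1 cohort, and only that table was used. HISAT2, edgeR 4.0.16 and DESeq2 1.42.1 are named, per the submitters' processing notes, as are the builds mm39 and mm10 with no role, so positions are given as gene order only, apart from RefSeq promoters. No source used here gives the strand setting of the counting, and near-identical or overlapping genes may share reads. Of 55487 gene IDs, 55141 matched a symbol.

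All 12 libraries of the cohort, 16.6 to 44.8 M counts each, were fitted together in edgeR 4.0.16 (R 4.3.3) with TMM, filterByExpr, 1 coefficient per genotype and quasi-likelihood tests. SE is the absolute log2 fold change divided by the square root of F. limma 3.58.1 and DESeq2 1.42.0 served as alternatives, and the scripts were tested on simulated data. Of 21376 tested genes, 18287 were placed in the gene order of GRCm38.p6.

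Named were Ripk1 and its pathway, the 10 genes of smallest p per direction, up to 4 per list by p, and neighbours of Ripk1. The comparison, the 35 lists and this rule were chosen with earlier results of these data known. A few genes of the lists are not reported here by name, but count in the list totals.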

Additional observations from a re-analysis of the deposited data

Results flagged for a closer look

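For the following 5 genes the effect of Ripk1 D138N differed between the 5xFAD background and the background without transgenes, by a test of the difference itself (edgeR quasi-likelihood test, adjusted over 21376 genes). Each value is the log2 fold change of Ripk1 D138N 5xFAD against 5xFAD minus that of Ripk1 D138N against WT. It was -2.73 for Isg15 (95% interval -3.39 to -2.07, adjusted p = 0.012), called in 8 of 12 fits that left out 1 library. It was -1.51 for Irgm1 (adjusted p = 0.0261, 4 of 12 fits), -2.59 for Irf7 (adjusted p = 0.0404, 2 of 12), -2.51 for Ifit1 (adjusted p = 0.0404, 2 of 12) and -2.72 for Oasl2 (adjusted p = 0.0404, 3 of 12). A replicate block and limma-voom each left 0 calls of a difference, so none of these calls held there. The highest adjusted p over the fits that left out 1 library was 0.0648 for Isg15 and 0.176 for Oasl2. The effect in the mice without transgenes lay between -0.21 (Ifit1) and 0.33 (Isg15) for these genes.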

How the results depend on the processing

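The count of 0 genes called in Ripk1 D138N against WT was the same under other scalings, DESeq2, limma-voom, a stricter filter, the 6 libraries alone, robust estimation and choroid plexus level as a covariate (added after the data were seen). It became 2 without a filter on low counts. These were Zkscan3 (log2 fold change 0.67 ± 0.12, edgeR, adjusted p = 0.0364) and Gm10123 (1.83 ± 0.34, adjusted p = 0.0369). With the filter Zkscan3 had nearly the same value but a wider SE, 0.68 ± 0.18. Gm10123 had 271, 1489 and 1042 counts in Ripk1 D138N and 393, 365 and 274 counts in WT, so its groups overlapped. On leaving out 1 library the count was 0 to 1 (1, Zkscan3, without WT 3). The mean effect over both backgrounds, another contrast that uses 12 libraries, had 13 calls. Replicate numbers are shared between genotypes, but same-numbered libraries did not all deviate together (correlations -0.0231, 0.286 and 0.421), so the numbers were not taken as pairs. Differently numbered libraries of Ripk1 D138N and WT had correlations from -0.474 to 0.322. A replicate block gave 0 calls, with 516 genes at an unadjusted p under 0.05, and 0 calls of a difference between backgrounds. The 78 calls of Ripk1 D138N 5xFAD against 5xFAD became 278 with DESeq2, 387 without the filter and 14 (without Ripk1 D138N 5xFAD 3) to 673 (without Ripk1 D138N 5xFAD 2) on leaving out 1 library. The 6 calls of a difference became 75 with DESeq2, 0 with limma-voom, 145 without the filter and 0 to 31 on leaving out 1 library, 31 without Ripk1 D138N 5xFAD 2. The causes were not tested. The median of the interferon list stayed between -0.08 and 0.07 in 16 alternatives, and 7 of 560 list medians moved by more than the spread of the libraries, 5 of them that of the RIPK1 and necroptosis core (-0.12 to 0.08). Genes under 1 CPM are limited by depth.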
